A study of Homo sapiens with 24 samples.

Results

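The genes described are 35 human genes of protein folding, quality control and stress signalling in the endoplasmic reticulum (ER), taken by symbol from a deposited table of 22925 gene symbols. They occupied 51 of its 37382 transcript rows, and the values of a gene were summed over its rows. The table holds cytoplasmic RNA of U2OS cells, an established human osteosarcoma line, in 24 libraries. A set of 6 libraries came from cells given an siRNA labelled for the long isoform of PAN3, 6 from cells given an siRNA labelled for the short isoform, 6 from cells given siRNAs labelled for both isoforms, and 6 from cells given a control siRNA. Within each set, the 6 libraries were taken at 0, 0.5, 1, 2, 4 and 6 h of actinomycin D, which blocks transcription, with 1 library at each time. PAN3 is a subunit of the PAN2-PAN3 deadenylase, which trims poly(A) tails, and the design asks how its isoforms bear on mRNA decay. All cells had been transfected with RNAiMAX, so the control series shares the lipid and the drug with the other series. No time was repeated, and nothing in the labels says whether a series came from 1 transfection or from several, so p-values here measure the scatter of time points about a course and not the spread between cultures.

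Newly made secretory and membrane proteins fold in the ER with the help of chaperones, disulphide isomerases and lectins, and those that fail are passed back to the cytosol for degradation. When unfolded proteins build up, the sensors IRE1 (gene ERN1), ATF6 and PERK (gene EIF2AK3) start the unfolded protein response. IRE1 splices XBP1 mRNA into the form that encodes an active transcription factor, ATF6 is cut to release another, and PERK phosphorylates eIF2α, which slows translation and favours ATF4. XBP1 and ATF6 raise the transcription of many of the genes described here.

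Values are FPKM, which scale fragments to transcript length and library size, and they summed to between 324072.2 and 384287.0 per library. PAN3 itself ranged over 0.376 to 1.70 FPKM in the long-labelled series, 1.76 to 4.01 in the short-labelled series, 0.411 to 2.49 in the both-labelled series and 0 to 2.40 in the control series. Against the control library of the same time it was lower at 4 of 6 times in the long-labelled series and 2 of 6 in the both-labelled series. In the short-labelled series it was lower at 0 of 6 times and higher at all 6, the opposite of the knockdown label. All 3 ranges overlap the control range. A single value per library does not separate the isoforms, and the series are therefore called by their labels and every direction rests on those labels. Of 8 epithelial markers, KRT8 and KRT18 reached 326.6 and 293.2 FPKM, with KRT8 listed at 0 in the short-labelled libraries of 0.5, 1 and 6 h, and EPCAM, CDH1, KRT19, KRT5, KRT14 and ESRP1 stayed at or under 0.31 FPKM. Of 10 bone and mesenchymal markers, VIM, S100A4 and COL1A1 reached 955.7, 1499 and 217.2 FPKM, with VIM listed at 0 in 1 library and COL1A1 in 7. RUNX2, SP7, SPARC, ALPL and COL1A2 stayed at or under 1.93, 0.06, 1.11, 0.04 and 0.06 FPKM, and BGLAP and TWIST1 were listed at 0 in all 24 libraries. Summed markers of leukocytes, endothelium and secretory cells stayed at or under 6.72 FPKM for any list in any library.

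Of the 35 genes, 30 had a mean of at least 1 FPKM and no 0 beside a value of at least 1 FPKM, and were tested with limma among 7860 genes. On the scale of log2(FPKM + 0.1), the median tested gene of a library drifted with time, to 3.39 at 6 h against 3.65 at 0 h in the long-labelled series, to 3.33 against 3.60 in the short-labelled series, to 3.38 against 3.63 in the both-labelled series and to 3.40 against 3.73 in the control series. This median was subtracted from each library, so all differences in log2 units and all slopes below are relative to it. FPKM values, their ratios, ranges and library shares are not centred. DERL3 and ERO1LB were listed at 0 in all 24 libraries. ERN1, the gene of IRE1, averaged 0.705 FPKM and was not tested. SYVN1, the ubiquitin ligase of ER-associated degradation, was listed at 0 in 8 libraries. TXNDC5, a disulphide isomerase, was listed at 0 in the control library of 0.5 h, between values of 110.4 and 275.6 FPKM. A 0 between high values in such a table can be a failed estimate.

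The short-labelled and both-labelled series stood apart from the control series in most of these genes, and the long-labelled series did not move as a group. Compared over the 6 matched times, 21 of the 30 tested genes were higher and 5 lower in the short-labelled series than in the control series at an adjusted p under 0.05, where 32.7% of all tested genes were called higher and 30.7% lower. In the both-labelled series 20 were higher and 6 lower, where all tested genes gave 33.0% and 29.0%. In the long-labelled series 9 were higher and 11 lower, against 27.1% and 24.1% of all tested genes. The median level difference from control over the 30 genes was -0.16 log2 units in the long-labelled series, 0.73 in the short-labelled and 0.69 in the both-labelled series, and the median over all tested genes was 0.03 in each. These 3 comparisons share the control libraries. In bulk RNA, fewer cells that make a transcript and less of it per cell cannot be told apart.

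A direct comparison of the short-labelled with the long-labelled series, which uses no control library, called 25 of the 30 genes higher and 4 lower, where 31.7% and 32.3% of all tested genes were called. The median difference was 0.77 log2 units over the 30 genes and -0.01 over all tested genes. The 35 genes together made up 1.17% to 1.31% of the FPKM of a long-labelled library, 1.94% to 2.35% of a short-labelled library, 1.98% to 2.22% of a both-labelled library and 1.02% to 1.32% of a control library. The ranges of the short-labelled and both-labelled libraries lie wholly above those of the other series.

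The difference was present at 0 h, the start of the drug course. There, the median ratio of FPKM to the control library was 1.02 in the long-labelled series, 1.60 in the short-labelled and 1.61 in the both-labelled series, over the 30 genes. At 6 h it was 0.864, 1.62 and 1.61. Across the 6 times the short-labelled ratio stayed between 1.41 and 1.65. These ratios were taken over the 30 genes only, and the same ratios over all tested genes were not computed.

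**Figure D1:**
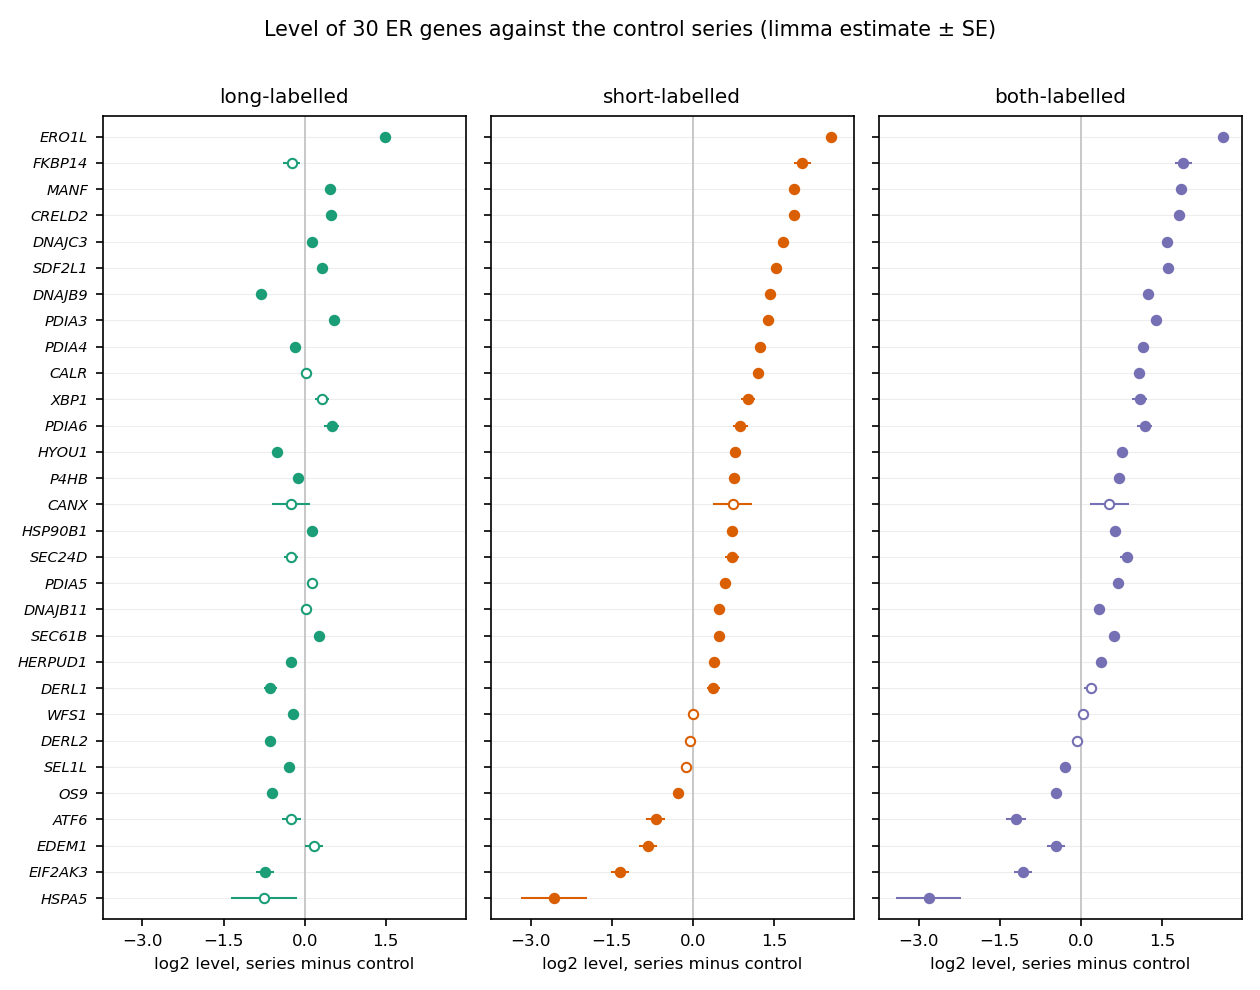
Level differences of the 30 tested genes from the control series (x axis, log2 units, limma estimate ± SE over 6 matched times) for the long-, short- and both-labelled series; filled points have an adjusted p under 0.05 and genes are ordered by the short-labelled difference. ERO1L is at the top in all 3 panels and HSPA5, at -2.56 and -2.82 in the short-labelled and both-labelled series, is at the foot.

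Among the ER chaperones and their cofactors, 8 of 9 were higher and 1 lower in the short-labelled series, against 32.7% and 30.7% of all tested genes. Likewise 8 were higher and 1 lower in the both-labelled series, against 33.0% and 29.0%. In the long-labelled series 5 were higher and 2 lower, against 27.1% and 24.1%. CRELD2, a secreted protein induced by ER stress, had 47.1, 54.1, 55.6, 55.0, 59.8 and 68.3 FPKM over the 6 times in the long-labelled series and 120.2, 123.8, 137.1, 147.2, 155.4 and 183.5 FPKM in the short-labelled series. It had 117.3, 122.0, 125.8, 137.6, 157.6 and 178.9 FPKM in the both-labelled series, against 35.2, 37.4, 45.5, 42.7, 43.2 and 45.8 FPKM in the control series. No library of the long-, short- or both-labelled series reached down to the control range, and the short-labelled and both-labelled values lay far above the long-labelled ones. The level differences from control were 0.49 ± 0.05 (SE), 1.87 ± 0.05 and 1.81 ± 0.05 log2 units, with adjusted p of 7.35e-08, 5.73e-16 and 8.89e-16.

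MANF is a secreted factor that binds the chaperone BiP. Its FPKM over the 6 times ran 112.6, 125.8, 119.5, 127.5, 140.2 and 140.5 in the long-labelled series, 329.5, 299.8, 233.1, 353.8, 361.1 and 415.6 in the short-labelled series, 288.1, 279.8, 322.1, 343.0, 343.8 and 389.8 in the both-labelled series and 85.4, 97.6, 108.2, 95.4, 94.0 and 88.9 in the control series. The level differences were 0.47 ± 0.09, 1.87 ± 0.09 and 1.85 ± 0.09 log2 units (adjusted p = 4.05e-04, 9.14e-12 and 1.22e-11), and no library of a labelled series fell within the control range.

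DNAJC3, a J-domain cochaperone of BiP, had 9.25 to 10.02 FPKM in the long-labelled series, 26.2 to 28.7 in the short-labelled and 26.0 to 27.6 in the both-labelled series, against 8.18 to 9.78 FPKM in the control series. The differences from control were 0.13 ± 0.04, 1.67 ± 0.04 and 1.60 ± 0.04 log2 units (adjusted p = 0.0114, 5.19e-16 and 9.00e-16). The long-labelled range overlaps the control range, and that call was lost without centring, with no filter on low values, with only the 12 libraries compared and without the libraries of 1 h. SDF2L1, another partner of the ER J-proteins, reached 129 to 155, 281 to 379 and 311 to 387 FPKM in the long-, short- and both-labelled series, against 106 to 131 FPKM in the control series. Its differences were 0.32, 1.55 and 1.60 log2 units with adjusted p of 9.57e-05, 7.28e-14 and 5.20e-14.

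DNAJB9, the J-protein ERdj4, moved in opposite directions in the long-labelled and the other labelled series. It had 11.5, 9.6, 9.2, 7.9, 6.9 and 6.9 FPKM over the 6 times in the long-labelled series and 48.8, 44.9, 45.1, 28.2, 36.2 and 36.1 in the short-labelled series. The both-labelled series had 46.0, 40.0, 37.8, 25.6, 33.0 and 30.8 FPKM, against 18.9, 18.3, 15.1, 15.3, 13.3 and 13.1 in the control series. Every long-labelled value lay below the control range and every short-labelled and both-labelled value above it, and the differences were -0.81 ± 0.08, 1.42 ± 0.08 and 1.24 ± 0.08 log2 units (adjusted p = 6.57e-08, 1.98e-11 and 1.47e-10). The short-labelled minus long-labelled difference was 2.23 ± 0.08 log2 units, a 4.70-fold ratio (adjusted p = 4.70e-14). HYOU1, the large HSP70-like nucleotide exchange factor GRP170, had the same pattern of signs at -0.52, 0.78 and 0.77 log2 units, but its FPKM are split between a pair of transcript rows with zeros, and with the higher row alone the both-labelled call was lost.

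HSP90B1 (GRP94), the ER member of the HSP90 class, differed less. Its median was 404.8 FPKM in the long-labelled series, 601.9 in the short-labelled and 551.1 in the both-labelled series, against 374.7 in the control series, with differences of 0.13, 0.73 and 0.62 log2 units (adjusted p = 0.00682, 1.39e-11 and 1.24e-10); the long-labelled call was lost with no filter on low values. DNAJB11, the J-protein ERdj3, had a median of 72.0, 99.6 and 90.9 FPKM in the long-, short- and both-labelled series, against 76.0 in the control series. It was higher in the short-labelled series by 0.48 and in the both-labelled series by 0.33 log2 units (adjusted p = 2.80e-09 and 3.88e-07), and its long-labelled difference of 0.02 did not pass (adjusted p = 0.729).

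HSPA5 (BiP, GRP78), the main HSP70 chaperone of the ER and a binding partner of the inactive sensors, went the other way. It had 202.3, 95.1, 83.7, 174.3, 182.3 and 114.0 FPKM over the 6 times in the long-labelled series, 111.2, 66.0, 28.4, 66.7, 22.7 and 8.07 in the short-labelled series and 76.1, 92.3, 37.5, 37.8, 16.5 and 5.64 in the both-labelled series, against 122.9, 261.7, 263.1, 106.6, 417.4 and 421.5 in the control series. The control values do not follow a smooth course, and the series lay within 76.1 to 202.3 FPKM at 0 h and within 5.64 to 421.5 FPKM at 6 h. The level differences from control were -0.75 ± 0.61, -2.56 ± 0.61 and -2.82 ± 0.61 log2 units, with adjusted p of 0.324, 0.00135 and 6.15e-04. The SE is the largest among the 30 genes, and HSPA5 has 1 transcript row. The short-labelled range of 8.07 to 111.2 FPKM overlaps the control range of 106.6 to 421.5 FPKM, and the both-labelled range does not.

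Promoters of several of these genes hold the ER stress element, CCAAT, any 9 bases, then CCACG, which was searched on either strand. HSPA5 and CRELD2 are printed whole because they carry the same element and moved in opposite directions in the short-labelled and both-labelled series. The windows run from 250 bases before to 50 bases after the start of the gene, from RefSeq on GRCh38.p14, 5′ to 3′ on the strand of the gene, at chr9:125241294-125241593 (minus strand) for HSPA5 and chr22:49918384-49918683 (plus strand) for CRELD2. Capitals mark the CCAAT and CCACG letters, which in CRELD2 lie on the opposite strand and so read CGTGG and ATTGG.
HSPA5: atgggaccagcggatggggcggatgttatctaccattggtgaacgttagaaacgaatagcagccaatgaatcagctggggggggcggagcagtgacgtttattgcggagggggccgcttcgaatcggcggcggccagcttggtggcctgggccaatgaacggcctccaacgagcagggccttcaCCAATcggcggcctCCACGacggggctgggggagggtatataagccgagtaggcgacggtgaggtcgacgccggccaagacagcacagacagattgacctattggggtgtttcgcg
CRELD2: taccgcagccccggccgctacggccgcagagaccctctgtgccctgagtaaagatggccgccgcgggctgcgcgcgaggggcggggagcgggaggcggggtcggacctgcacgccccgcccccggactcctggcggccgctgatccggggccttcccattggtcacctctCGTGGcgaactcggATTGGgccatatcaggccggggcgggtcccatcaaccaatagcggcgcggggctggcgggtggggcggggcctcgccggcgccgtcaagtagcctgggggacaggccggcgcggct

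Of the 35 members 30 had a window, and PDIA3, DERL1, DERL3, SEC24D and FKBP14 had none. The ER stress element stood in the windows of HSPA5, HSP90B1, CRELD2, PDIA6, CALR, CANX, XBP1 and ERO1LB, 8 of 30. Of all 27305 genes with a window, 0.0916% held it in a window. A related element, ATTGG, any 1 base, then CCACG, stood in SDF2L1, HERPUD1 and HYOU1, 3 of 30, and in 0.0696% of all those genes. The letters TGACGTGG stood in HYOU1 and TXNDC5, 2 of 30, and in 0.927% of all those genes. In HYOU1 they overlap 1 of its ATTGG sites. The ER stress element was first described from promoters of this group of genes, so its share among them is a description. The stretches below show the elements in 8 members with 10 bases on either side, written along the strand on which the match reads.
HSPA5 at chr9:125241381-125241419, minus strand: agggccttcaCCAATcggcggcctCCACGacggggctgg
HSP90B1 at chr12:103930206-103930244, plus strand: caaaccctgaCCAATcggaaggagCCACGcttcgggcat
HSP90B1 at chr12:103930311-103930349, minus strand: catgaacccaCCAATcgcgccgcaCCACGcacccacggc
PDIA6 at chr2:10812843-10812881, minus strand: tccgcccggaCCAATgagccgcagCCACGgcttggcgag
CALR at chr19:12938374-12938412, minus strand: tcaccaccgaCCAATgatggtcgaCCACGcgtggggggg
XBP1 at chr22:28800593-28800631, minus strand: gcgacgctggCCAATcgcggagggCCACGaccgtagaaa
SDF2L1 at chr22:21642104-21642134, minus strand: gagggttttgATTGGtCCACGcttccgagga
HERPUD1 at chr16:56932015-56932045, plus strand: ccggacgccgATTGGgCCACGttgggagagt
HYOU1 at chr11:119057264-119057294, plus strand: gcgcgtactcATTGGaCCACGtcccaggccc

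In the short-labelled series 32.7% of all tested genes were called higher and 30.7% lower, with or without an element. Among the tested members with either of the CCACG elements, 8 of 10 were higher there and 1, HSPA5, lower. Their median difference was 0.83 log2 units. Among the 16 tested members with a window and neither element, 9 were higher and 4 lower, with a median of 0.48. In the both-labelled series the counts were 8 and 1 with a median of 0.92, and 9 and 5 with a median of 0.47. All tested genes gave 33.0% and 29.0% there. Of 13 other tested genes whose window holds either element, 2 were higher and 4 lower in the short-labelled series, with a median of -0.07. ERO1L and MANF, which had large differences, hold neither set of letters in their windows.

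Of the disulphide isomerases, oxidases and the prolyl isomerase, all 7 tested members were higher in the short-labelled series and all 7 in the both-labelled series. The median differences were 1.25 and 1.18 log2 units, and 32.7% and 33.0% of all tested genes were called higher in those series. In the long-labelled series 3 were higher and 2 lower with a median of 0.14, against 27.1% and 24.1% of all tested genes. ERO1L, the oxidase that restores disulphide isomerases, had 14.6, 15.7, 15.8, 17.6, 18.8 and 17.9 FPKM over the 6 times in the long-labelled series and 29.0, 31.1, 32.0, 37.1, 36.9 and 39.8 in the short-labelled series. The both-labelled series had 33.1, 34.8, 35.02, 41.0, 35.6 and 39.3 FPKM, against 5.71, 5.57, 5.69, 6.74, 6.62 and 6.49 in the control series. All 3 labelled series lay wholly above the control series and the long-labelled series lay wholly below the other labelled series. ERO1L was 2.79-fold, 5.84-fold and 6.16-fold higher than control, or 1.48 ± 0.05, 2.55 ± 0.05 and 2.62 ± 0.05 log2 units (adjusted p = 6.91e-14, 1.48e-17 and 1.54e-17), the largest positive level difference among the 30 genes in each of the 3 comparisons.

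FKBP14, an ER prolyl isomerase, was at low levels of 1.32 to 3.57 FPKM in the long-labelled series, 8.86 to 13.4 in the short-labelled and 8.93 to 10.6 in the both-labelled series, against 1.97 to 3.28 FPKM in the control series. Its differences were -0.24 ± 0.16 (adjusted p = 0.223), 2.03 ± 0.16 (4.15e-09) and 1.89 ± 0.16 (1.10e-08) log2 units. PDIA3 (ERp57), which works with the lectin chaperones, had a median of 57.2, 100.5 and 98.3 FPKM in the long-, short- and both-labelled series, against 41.5 FPKM in the control series. It was higher by 0.55, 1.38 and 1.39 log2 units (adjusted p = 3.64e-06, 1.10e-11 and 1.14e-11). PDIA4 (ERp72) was lower in the long-labelled series and higher in the others, at -0.18, 1.25 and 1.15 log2 units (adjusted p = 0.0234, 1.23e-11 and 4.14e-11), and its long-labelled call was lost when the long-labelled library of 2 h or the control library of 0.5 h or 1 h was left out.

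P4HB, protein disulphide isomerase itself, was among the most abundant members. It had 423 to 610 FPKM in the long-labelled series, 789 to 1141 in the short-labelled and 754 to 1127 in the both-labelled series, against 468 to 716 FPKM in the control series. The differences were -0.13, 0.76 and 0.69 log2 units (adjusted p = 0.00217, 5.45e-13 and 2.03e-12). PDIA6 differed by 0.50, 0.88 and 1.18 log2 units and PDIA5 by 0.14, 0.59 and 0.68 log2 units, and of these 6 differences the long-labelled one of PDIA5 did not pass (adjusted p = 0.203). TXNDC5, which was not tested, had 378 to 564 FPKM in the long-labelled series, 93.6 to 264 in the short-labelled and 141 to 309 in the both-labelled series, against 0 to 370 FPKM in the control series.

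Calreticulin and calnexin are the lectins that hold glycoproteins while they fold. CALR was the most abundant of the 35 genes, with 984, 1005, 1057, 1121, 1244 and 1378 FPKM over the 6 times in the long-labelled series and 2159, 2169, 2311, 2551, 2697 and 3073 FPKM in the short-labelled series. It had 2024, 1973, 2137, 2295, 2390 and 2888 FPKM in the both-labelled series, against 956, 1030, 1168, 1147, 1203 and 1358 FPKM in the control series. The long-labelled values overlapped the control values, and the short-labelled and both-labelled values lay wholly above them at 2.31-fold and 2.10-fold the control level, with differences of 0.03 ± 0.03 (adjusted p = 0.467), 1.21 ± 0.03 (1.10e-15) and 1.07 ± 0.03 (6.71e-15) log2 units. CANX was not called against control in any series, at -0.25 ± 0.36, 0.74 ± 0.36 and 0.52 ± 0.36 log2 units (adjusted p = 0.586, 0.0825 and 0.222). Its FPKM are split between a pair of rows, of which 1 was listed at 0 in all 6 long-labelled libraries, and its 6 h values of 81.7 and 38.1 FPKM in the short-labelled and both-labelled series stand far below the 5 earlier ones of at least 193.7 FPKM.

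**Figure D2:**
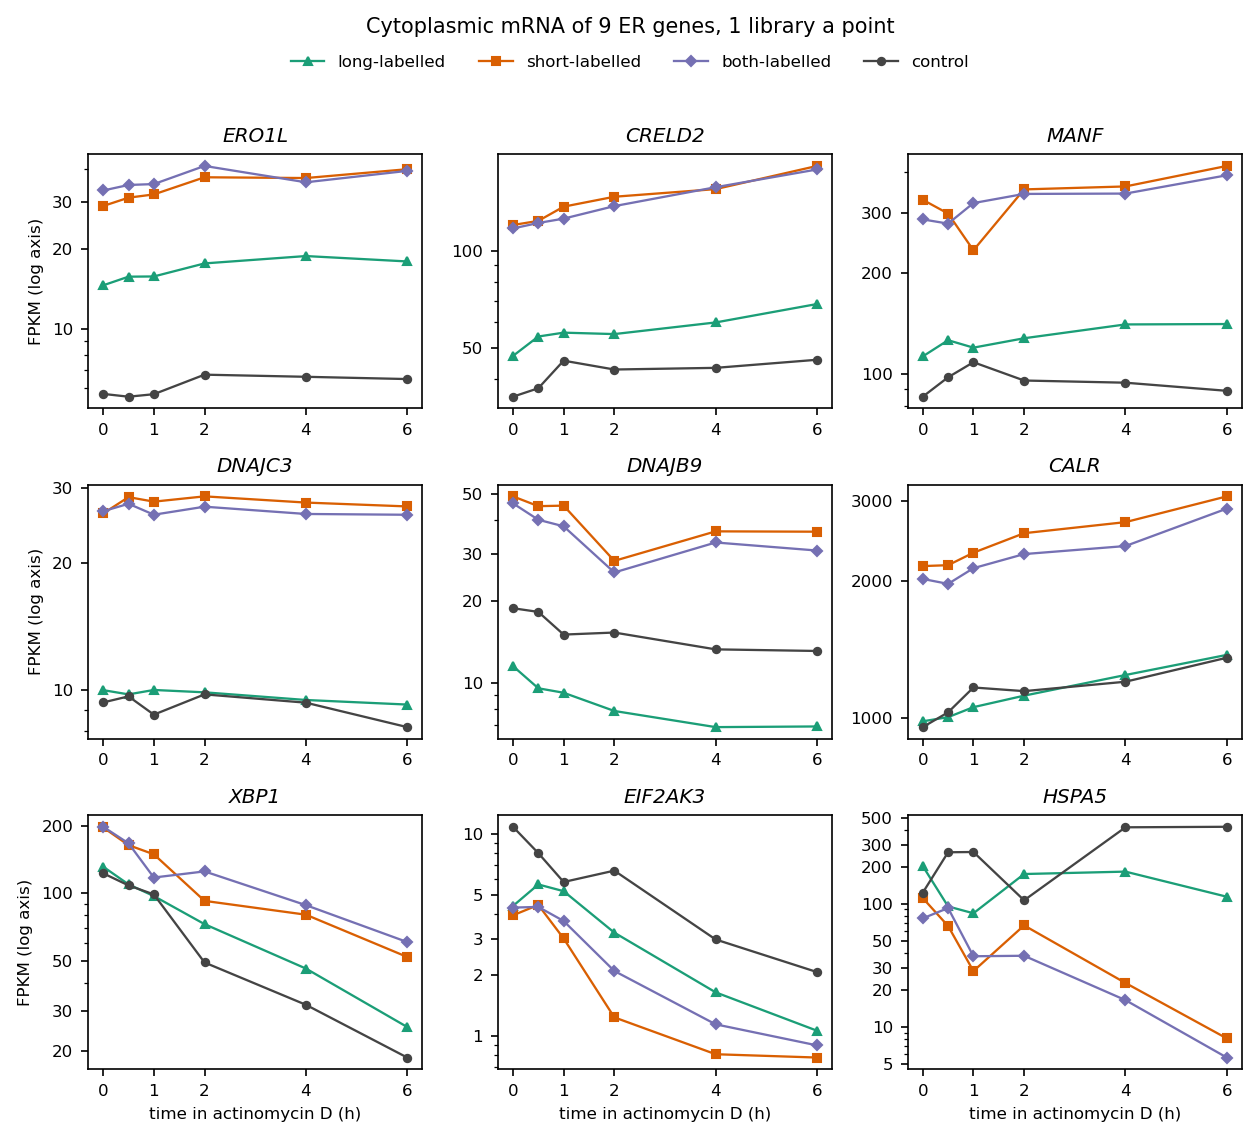
FPKM (y axis, log scale) against time in actinomycin D (x axis, h) for 9 genes in the long-, short-, both-labelled and control series; each point is 1 library. The short-labelled and both-labelled courses of ERO1L, CRELD2, MANF, DNAJC3, DNAJB9 and CALR run close together and above the control course from 0 h on, XBP1 and EIF2AK3 fall in all 4 series, and HSPA5 falls to 8.07 and 5.64 FPKM in the short-labelled and both-labelled series at 6 h.

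The genes of the sensors did not share the direction of the chaperones. EIF2AK3, which encodes PERK, had 4.39, 5.62, 5.20, 3.24, 1.64 and 1.06 FPKM in the long-labelled series, 3.95, 4.44, 3.03, 1.23, 0.808 and 0.778 in the short-labelled series and 4.31, 4.35, 3.70, 2.09, 1.14 and 0.894 in the both-labelled series, against 10.9, 8.03, 5.78, 6.58, 2.996 and 2.07 in the control series. At each of the 6 times the control library had the highest value. The differences were -0.73 ± 0.16, -1.34 ± 0.16 and -1.07 ± 0.16 log2 units (adjusted p = 9.14e-04, 9.43e-07 and 1.44e-05).

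ATF6 ran at 4.56 to 7.44 FPKM in the long-labelled series, 3.54 to 4.73 in the short-labelled and 1.48 to 4.15 in the both-labelled series, against 5.59 to 8.90 FPKM in the control series. Every short-labelled and both-labelled value was below the lowest control value. The differences were -0.24 ± 0.18 (adjusted p = 0.279), -0.69 ± 0.18 (0.00303) and -1.20 ± 0.18 (1.53e-05) log2 units. ERN1, below the level for testing, had medians of 0.515, 0.776 and 0.689 FPKM in the long-, short- and both-labelled series, against 0.992 FPKM in the control series.

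XBP1 had 131.3, 109.6, 97.3, 73.0, 46.3 and 25.5 FPKM over the 6 times in the long-labelled series and 196.3, 163.8, 149.1, 92.6, 80.4 and 52.2 in the short-labelled series. The both-labelled series had 197.6, 166.9, 117.6, 125.2, 88.6 and 60.8 FPKM, against 122.8, 108.5, 98.9, 49.3, 32.0 and 18.6 in the control series. The short-labelled and both-labelled values exceeded the control value at each of the 6 times. The level differences were 0.32 ± 0.13 (adjusted p = 0.0569), 1.02 ± 0.13 (3.23e-06) and 1.08 ± 0.13 (1.58e-06) log2 units. All of these reads stood in 1 of the XBP1 transcript rows, and the other was listed at 0 in all 24 libraries, so the values do not separate spliced from unspliced mRNA.

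The genes of ER-associated degradation had no common direction in the short-labelled series. Of the 6 tested, 2 were higher and 2 lower in the short-labelled series, where 32.7% and 30.7% of all tested genes were called, 1 was higher and 3 lower in the both-labelled series, where 33.0% and 29.0% were called, and 0 were higher and 5 lower in the long-labelled series, where 27.1% and 24.1% of all tested genes were called. At an unadjusted p under 0.05 the count higher there was also 0. HERPUD1, a stress-induced membrane subunit of the degradation complex, had 73.7 at 0 h and 49.5 FPKM at 6 h in the long-labelled series, 129.6 and 77.1 in the short-labelled and 130.3 and 73.0 in the both-labelled series, against 90.2 and 57.1 in the control series. It differed by -0.26, 0.40 and 0.37 log2 units (adjusted p = 4.18e-04, 2.81e-06 and 5.92e-06). The short-labelled value at 6 h includes 10.6 FPKM from a transcript row listed at 0 in every other library. The main HERPUD1 row had 66.5 FPKM in that library.

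EDEM1, which hands misfolded glycoproteins to degradation, had 11.9 to 16.4 FPKM in the long-labelled series, 4.57 to 8.89 in the short-labelled and 4.56 to 11.4 in the both-labelled series, against 9.61 to 14.3 FPKM in the control series. The short-labelled values were all below the control values, and the differences were 0.18 ± 0.17 (adjusted p = 0.393), -0.83 ± 0.17 (3.17e-04) and -0.46 ± 0.17 (0.0232) log2 units. The both-labelled call was lost when the both-labelled or the control library of 4 h or 6 h was left out. The derlins take part in export to the cytosol. DERL1 differed by -0.64, 0.38 and 0.18 and DERL2 by -0.64, -0.05 and -0.08 log2 units in the long-, short- and both-labelled series. Both long-labelled differences passed (adjusted p = 1.93e-04 and 5.20e-07), as did the short-labelled one of DERL1 (0.00879). The short-labelled minus long-labelled differences of 1.02 ± 0.12 for DERL1 and 0.59 ± 0.07 for DERL2 passed the test (adjusted p = 6.04e-07 and 8.88e-07). OS9, a lectin of the same pathway, was lower in all 3 labelled series, at -0.61, -0.28 and -0.47 log2 units (adjusted p = 3.16e-09, 2.72e-05 and 5.63e-08). SEL1L, the scaffold of the ubiquitin ligase, differed by -0.29, -0.13 and -0.30 log2 units (adjusted p = 0.0187, 0.269 and 0.0113), and its long-labelled call was lost without the long-labelled or the control library of 6 h. SYVN1 was listed at 27.9 to 34.4 FPKM in the short-labelled and 28.1 to 35.8 FPKM in the both-labelled series, and at 0 to 15.8 FPKM in the long-labelled and 0 to 17.1 FPKM in the control series.

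SEC61B, a subunit of the translocon, was higher in all 3 labelled series, by 0.26, 0.48 and 0.61 log2 units (adjusted p = 9.98e-05, 4.22e-08 and 1.68e-09). SEC24D, a cargo adaptor of the vesicles that leave the ER, had 4.40 to 13.0 FPKM in the long-labelled series, 13.2 to 18.4 in the short-labelled and 11.7 to 19.5 in the both-labelled series, against 7.18 to 11.1 FPKM in the control series. Its differences were -0.25 ± 0.12 (adjusted p = 0.0952), 0.72 ± 0.12 (5.61e-05) and 0.84 ± 0.12 (1.14e-05) log2 units. WFS1, an ER membrane protein, stayed within 16.4 to 22.8 FPKM in all 24 libraries and differed by -0.22 (adjusted p = 3.88e-04), 0.01 (0.867) and 0.03 (0.572) log2 units; the long-labelled call was lost with the highest transcript row alone.

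Counted without any model, 14 of the 30 tested genes had a short-labelled FPKM range wholly above the control range and 2 wholly below it, where 12.6% and 17.7% of all tested genes did. In the both-labelled series the counts were 16 above and 2 below, against 13.3% and 16.3%. In the long-labelled series 3 lay above and 6 below, against 9.62% and 12.2%. The 3 above were CRELD2, MANF and ERO1L, and the 6 below were DNAJB9, DERL1, DERL2, HYOU1, WFS1 and OS9.

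After transcription was blocked, 16 to 18 of the 30 mRNAs were called as gaining on the median gene, depending on the series. The slope was above 0, called or not, in 23, 23, 20 and 25 of the 30 in the long-, short-, both-labelled and control series. In the same order, the median slope was 0.077, 0.11, 0.067 and 0.095 log2 units per h over the 30 genes. Over all tested genes it was 0.037, 0.038, 0.035 and 0.044. The straight-line slope was positive and called in 16 of 30 genes in the long-labelled series, 18 in the short-labelled, 16 in the both-labelled and 17 in the control series, where 26.1%, 28.0%, 26.3% and 30.1% of all tested genes were called. It was negative and called in 4, 4, 7 and 3 genes, where 13.4%, 16.3%, 14.6% and 16.7% of all tested genes were called. HSP90B1 gained 0.15, 0.17, 0.14 and 0.18 log2 units per h and CALR gained 0.13, 0.13, 0.12 and 0.12 in the long-, short-, both-labelled and control series. With quantile normalisation the control slope of CALR was -0.0094 (adjusted p = 0.490). The positive control-course calls of DERL1, DERL2, HSPA5, HYOU1, P4HB, PDIA4, PDIA6 and SEC61B were also lost under that setting. FPKM is a share of each library, so a gain here is one relative to the other mRNAs. Without the centring, 13 rather than 20 genes of the control course were called, 9 of them up and 4 down.

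XBP1, EIF2AK3 and HERPUD1 were the 3 genes with a negative slope called in all 4 series. XBP1 lost 0.34, 0.26, 0.22 and 0.41 log2 units per h in the long-, short-, both-labelled and control series, with an SE of 0.03 in each. EIF2AK3 lost 0.35, 0.38, 0.36 and 0.31 log2 units per h, with an SE of 0.06. HERPUD1 fell more slowly, by 0.06, 0.07, 0.08 and 0.05 log2 units per h, and its control call (adjusted p = 0.0454) was lost when any 1 of the 6 control libraries was left out.

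**Figure D3:**
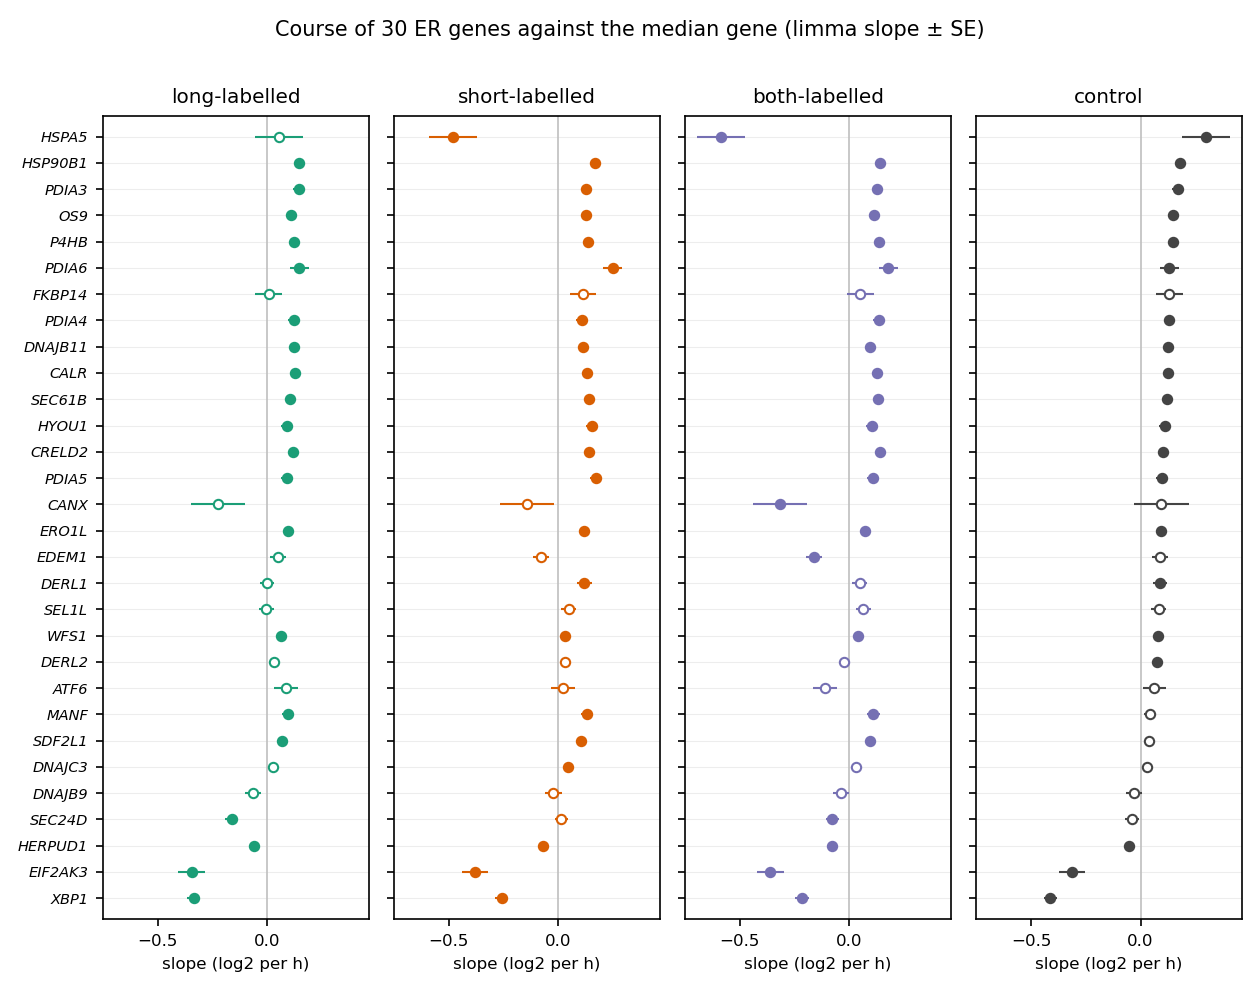
Slope of each of the 30 tested genes over 0 to 6 h (x axis, log2 units per h relative to the median gene, limma estimate ± SE) in the long-, short-, both-labelled and control series; filled points have an adjusted p under 0.05. Most points lie between 0 and 0.18, XBP1 and EIF2AK3 lie at the left in all 4 panels, and HSPA5 lies at 0.30 in the control series and at -0.48 and -0.59 in the short-labelled and both-labelled series.

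Slopes were called as different between series in 4 of the 30 genes at most. Against control, limma called 2 genes with a higher and 2 with a lower slope in the short-labelled series, where 4.21% and 4.64% of all tested genes were called, and 1 and 3 in the both-labelled series, against 3.83% and 3.22%. In the long-labelled series 0 of 30 were called in either direction, against 1.25% and 0.585% of all tested genes, and at an unadjusted p under 0.05 the count was 3, all lower (CANX, HSP90B1 and SEC24D), where 13.4% of all tested genes passed that threshold in either direction. The short-labelled minus long-labelled comparison called 1 higher and 0 lower, against 2.23% and 4.07%, and at an unadjusted p under 0.05 it gave 2 higher and 2 lower, where 19.2% of all tested genes passed in either direction.

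HSPA5 had the largest slope differences. Its course differed from control by -0.24 ± 0.16 log2 units per h in the long-labelled series (adjusted p = 0.562), -0.78 ± 0.16 in the short-labelled (0.00637) and -0.88 ± 0.16 in the both-labelled series (0.00397). Over the 6 h its FPKM changed to 0.563, 0.0725 and 0.0742 times the 0 h value in the 3 labelled series, against 3.43 times in the control series. The sizes changed little when a library of 6 h was left out, but the calls were lost: with the 6 h control library left out the differences were -0.72 (adjusted p = 0.120) and -0.82 (0.0836). With the 6 h library of the short-labelled series left out its difference was -0.76 (0.104), and with that of the both-labelled series left out -0.91 (0.0647). Both calls were also lost with the times 0 to 4 h only and with only the 12 libraries of the series compared, and the short-labelled one without the libraries of 0 h. The positive control slope of 0.30 ± 0.11 (adjusted p = 0.0342) was lost without the control library of 0 h, 4 h or 6 h.

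XBP1 fell less steeply than in control in the short-labelled and both-labelled series, with slope differences of 0.08 ± 0.04 (adjusted p = 0.465), 0.15 ± 0.04 (0.0323) and 0.20 ± 0.04 (0.0104) log2 units per h in the long-, short- and both-labelled series. At 6 h it stood at 0.194, 0.266 and 0.307 of its 0 h FPKM, against 0.152 in the control series. With the 6 h control library left out the 2 called differences were 0.19 (adjusted p = 0.102) and 0.24 (0.0540). Leaving out the 6 h library of the series itself gave 0.13 (0.310) in the short-labelled and 0.21 (0.104) in the both-labelled series. The short-labelled call was also lost without the short-labelled library of 0 h, 0.5 h or 4 h or the control library of 0.5 h or 4 h, at adjusted p of 0.0517 to 0.0667. EDEM1 differed in slope from control by -0.17 ± 0.04 (adjusted p = 0.0236) and -0.25 ± 0.04 (0.00248) log2 units per h in the short-labelled and both-labelled series. With the 6 h control library left out these were -0.14 (adjusted p = 0.274) and -0.23 (0.0735), and with the 6 h library of the series itself left out -0.19 (0.132) and -0.21 (0.0995). The short-labelled call was also lost without its library of 0.5 h (-0.15, adjusted p = 0.0573).

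The other called slopes were smaller. SDF2L1 was higher by 0.07 ± 0.02 log2 units per h in the short-labelled series (adjusted p = 0.0496) and lost its call in 24 of 31 alternatives, among them any 1 library of either series left out except those of 2 h. DERL2 was lower by 0.10 ± 0.02 in the both-labelled series (adjusted p = 0.0218), where its 6 h value of 39.9 FPKM stands below 52.9 to 57.0 at the other 5 times, and without that library the difference was -0.04 (adjusted p = 0.597). Its call was also lost without the control library of 0 h (adjusted p = 0.0693) or 6 h (0.107). SEC24D had a slope 0.18 ± 0.04 higher in the short-labelled than in the long-labelled series (adjusted p = 0.0198), with 18.4 FPKM at 0 h and 13.2 FPKM at 6 h in the short-labelled series, against 13.0 and 4.40 FPKM in the long-labelled series. That call was lost without the long-labelled library of 0 h (0.14, adjusted p = 0.0643) or 6 h (0.18, 0.182) or the short-labelled library of 6 h (0.17, 0.197).

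Genes of neighbouring pathways, from lists chosen with earlier results of these data known, are given for comparison. Of all tested genes, 32.7% were called higher and 30.7% lower in the short-labelled series and 33.0% and 29.0% in the both-labelled series. The long-labelled shares were 27.1% and 24.1%. In the PERK-ATF4 branch 1 of 10 tested genes was higher and 7 lower in the short-labelled series with a median difference of -0.77 log2 units, 1 and 5 in the both-labelled series with a median of -0.50, and 3 and 3 in the long-labelled series with a median of 0.05. ASNS, asparagine synthetase, had 50.1 FPKM at 0 h in the long-labelled series, 13.9 in the short-labelled and 19.5 in the both-labelled series, against 39.0 in the control series, and differed from control by -1.51 (adjusted p = 4.5e-12) and -0.99 (1.6e-09) log2 units in the short-labelled and both-labelled series. ATF3, a stress-induced transcription factor, differed by -1.01, -1.53 and -1.48 log2 units in the long-, short- and both-labelled series (adjusted p = 7.7e-06, 2.8e-08 and 4.8e-08). ATF4 itself was lower in the short-labelled series, at -1.07 log2 units (adjusted p = 1.8e-08). It had 143.4 to 240.2 FPKM there and 174.6 to 241.8 FPKM in the both-labelled series. The long-labelled series had 281.1 to 336.9 FPKM, and the control series 345.8 to 432.8 FPKM. The gene that was higher, SESN2, a stress-induced sestrin, differed by 1.56, 2.60 and 2.83 log2 units (adjusted p = 9.4e-05, 1.4e-07 and 5.2e-08).

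The counts of the next lists stand beside the same all-gene shares. These were 32.7% higher and 30.7% lower (short-labelled), 33.0% and 29.0% (both-labelled) and 27.1% and 24.1% (long-labelled). Of 34 tested ER folding enzymes outside the 35 genes, 18 were higher and 8 lower in the short-labelled series, with a median of 0.22. The both-labelled series had 14 higher and 10 lower, with a median of 0.04. In the long-labelled series 9 were higher and 9 lower, with a median of 0.08. PPIB (cyclophilin B) was higher by 0.52, 1.11 and 1.09 log2 units in the long-, short- and both-labelled series (adjusted p = 7.1e-10, 1.2e-14 and 1.5e-14), and the prolyl isomerase FKBP9 differed by -2.46 and -2.30 in the short-labelled and both-labelled series (8.5e-14 and 2.2e-13). Of 28 other tested genes of ER-associated degradation, 15 were higher and 2 lower in the short-labelled series, 14 and 3 in the both-labelled and 5 and 8 in the long-labelled series. Their median differences in the same order were 0.40, 0.31 and 0.01 log2 units. Of 30 tested genes of the translocon, signal peptidase and oligosaccharyltransferase, 17 were higher and 5 lower in the short-labelled series, 17 and 5 in the both-labelled and 4 and 10 in the long-labelled series. RPN1, an oligosaccharyltransferase subunit, was higher by 1.38 and 1.31 log2 units in the short-labelled and both-labelled series (adjusted p = 7.6e-12 and 1.7e-11), and SRPR, the receptor of the signal recognition particle, differed by -1.45 and -1.23 (9.3e-13 and 9.5e-12). The COPII coat and export list gave 8 higher and 7 lower of 21 in the short-labelled, 10 and 5 in the both-labelled and 9 and 5 in the long-labelled series. The other sensors, proteases and kinases gave 3 and 2 of 12 in the short-labelled, 4 and 3 in the both-labelled and 1 and 4 in the long-labelled series.

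**Figure D4:**
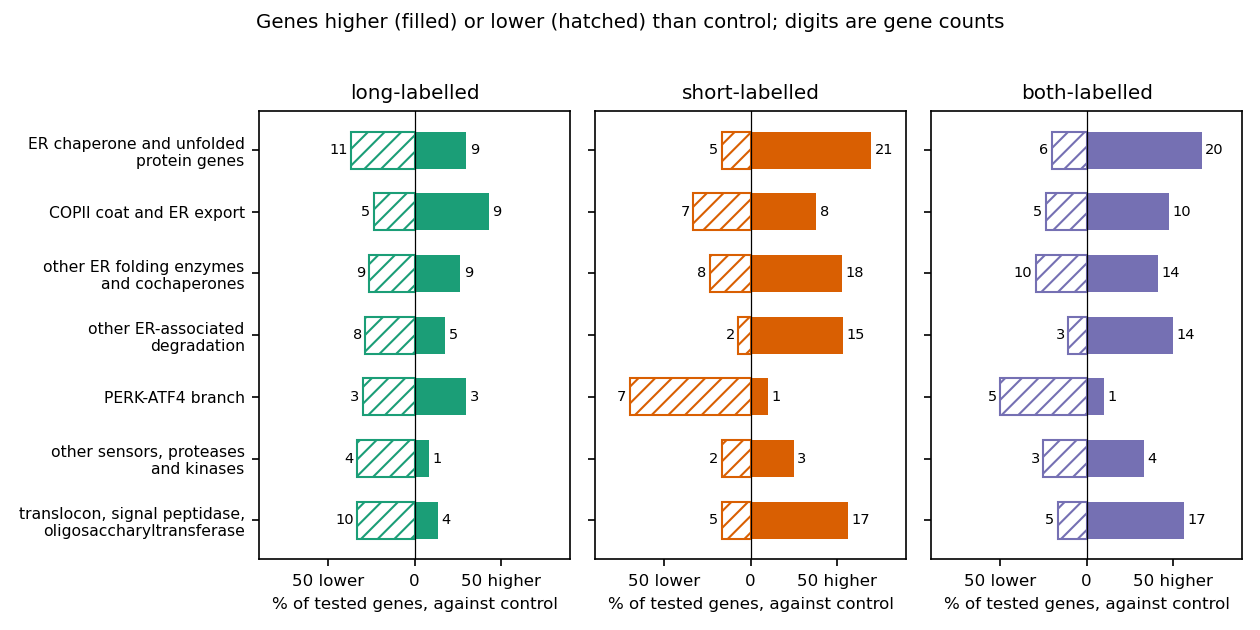
Share of tested genes of each list (x axis, percent) that were higher (filled, right) or lower (hatched, left) than control at an adjusted p under 0.05, in the long-, short- and both-labelled series; digits are gene counts. The ER chaperone and unfolded protein genes have 21 and 20 higher genes in the short-labelled and both-labelled series. The PERK-ATF4 branch has 1 higher and 7 lower in the short-labelled series. All tested genes gave 32.7% higher and 30.7% lower in the short-labelled series and 33.0% and 29.0% in the both-labelled series.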

How the data were processed

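Per the submitters' processing notes, reads were aligned to hg19 with TopHat 1.3.3. The authors deposited FPKM per RefSeq transcript; the tool and annotation behind them were not given in the sources used here, and the depth is unknown. Read totals could not be recovered, so no counting error is given. RNA was cytoplasmic, by RNeasy kit, per the labels' protocols. Reads that fit several transcripts may have been split. A gene is the sum of its rows.

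Genes with a mean under 1 FPKM, a missing cell, or a 0 next in time to at least 1 FPKM in the same series were left out, and log2(FPKM + 0.1) was centred on the median tested gene. Fold changes on that scale understate those of low genes. limma 3.58.1 (R 4.3.3, trended variance, Benjamini-Hochberg over 7860 genes) fitted all 24 libraries: levels with time as a factor and series, slope differences with series by time added, and courses as straight lines. Members and pathway lists were chosen with earlier results of these data known; any member, and up to 4 genes a list, by smallest p among those called, could be named. The scripts were tested on simulated data. Alternatives changed the pseudocount, filters, centring, zeros, transcripts, times and libraries.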

Additional observations from a re-analysis of the deposited data

Results flagged for a closer look

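In matched differences from control, 1 of 6 times stood apart from the others (Dixon's 95% value) in 10 of 90 courses examined. Chance alone flags about 1 in 20 of independent courses. The courses of a gene share the control libraries and are not independent, so the count is not a test against that rate. The largest deviations were those of CANX at 6 h, at -0.63 log2 units in the short-labelled series (0.88 to 1.18 at the other times) and -1.78 in the both-labelled series (0.79 to 1.11). PDIA3 was highest at 0.5 h in both of those series, at 1.70 and 1.74 log2 units, and DNAJB9 was lowest at 2 h, at 0.97 and 0.82. The shared control library of 0.5 h had 28.8 FPKM of PDIA3, below the 35.6 and 41.6 FPKM at 0 h and 1 h. The short-labelled and both-labelled libraries had 86.3 and 89.0 FPKM at 0.5 h, against 85.6 and 89.7 at 0 h. In the short-labelled series HSP90B1 stood at 0.59 at 4 h and DERL1 at 0.094 at 0 h. HERPUD1 stood at 0.63 at 0 h in the both-labelled series and SEC24D at 0.49 at 0 h in the long-labelled series. The slope of SEC24D differed between the short-labelled and long-labelled series by 0.18 log2 units per h (adjusted p = 0.0198).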

How the results depend on the processing

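Counts of members with a level difference stayed within 1.5 times under every alternative, and 26 of 26 short-labelled, 24 of 26 both-labelled, 15 of 20 long-labelled and 24 of 29 short-labelled minus long-labelled calls held in all of them. None of the slope calls between series did. EIF2AK3, counted as held in the level comparisons, was tested in 29 alternatives there, and the other called members in 30. The 4 short-labelled slope calls became 2 with no filter, 1 with quantile normalisation, 1 for 0 to 4 h, 0 with only the 12 libraries compared and 2 with straight lines, and 0 to 4 when a time or library was left out. The 4 both-labelled calls became 0 for 0 to 4 h, 0 with only 12 libraries and 0 to 4 on leaving out. The 1 short-labelled minus long-labelled call became 0 with quantile normalisation, 0 for 0 to 4 h, 2 with 12 libraries and 0 to 2 on leaving out. The 20 control-course calls became 13 uncentred, and 7 of 20 held throughout. CALR's control slope reversed to -0.0094 under quantile normalisation, and OS9's short-labelled minus long-labelled level to -0.0666 with the highest transcript only. The causes were not tested. No paired analysis was possible because replicate numbers only follow accession order, while the level and slope differences match libraries by time. Over all genes, the control course called 1103 up and 1939 down uncentred, against 2368 and 1315, and 7271 and 994 with no filter. With no filter, the short-labelled level calls were 5327 and 2622, against 2572 and 2416, and short-labelled minus long-labelled 5327 and 2534, against 2488 and 2539.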
